A study of Mus musculus with 32 samples.

Results

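Nuclear-encoded oxidative phosphorylation genes make the subunits of the respiratory chain and of ATP synthase that are translated in the cytosol and imported into the mitochondrion. The set was a fixed list of 37 genes, given by gene identifier and symbol and not by a measured value, and 36 of them had a row among the 21237 probe sets of the array. The 36 genes were 13 named as subunits of complex I, 4 of complex II, 5 of complex III, 9 of complex IV and 4 of complex V, and the somatic cytochrome c gene. One further complex IV subunit of the list is not analysed here. Symbols are those that the list pairs with the identifiers, and complexes were assigned from the symbols.

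The series compared RNA preservation, amplification kit and RNA input on 32 mouse expression arrays in 12 groups. BC57 is a mouse bladder cancer cell line, grown here in DMEM with 10% fetal serum, and its reference was normal bladder urothelium removed from 9 mice. One BC57 cell pellet and each piece of urothelium were split, so that one part was held in formalin for 24 h before paraffin embedding (FFPE) and the other was frozen (FF). FFPE RNA came from 10 sections of 5 µm. In each cell type, FFPE RNA was amplified with the GeneChip WT Pico kit from 0.5 ng (n = 3 arrays) and 2 ng (n = 3) and with the SensationPlus kit from 50 ng (n = 2), and FF RNA with WT Pico from 0.5 ng (n = 3) and 2 ng (n = 3) and with the GeneChip WT Plus kit from 100 ng (n = 2). Groups are called below by cell type, preservation and input, and the input names the kit. BC57 is a single line from culture and the urothelium came from animals, so tumour origin and culture cannot be told apart here. The sources used here do not say whether RNA of the 9 mice was pooled, nor give strain, sex or age.

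Oxidative phosphorylation passes electrons from NADH through complex I, and from succinate through complex II, to complex III, then by cytochrome c to complex IV, where oxygen is reduced. Complexes I, III and IV pump protons, and complex V lets them flow back and makes ATP. Most subunits come from nuclear genes on many chromosomes and must be made in step with the few subunits that mitochondrial DNA encodes. The capacity of the chain is known to differ between tissues and between tumour cells and their tissue of origin.

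The deposited values are log2 intensities. The array medians over all probe sets ran between 5.28 and 5.42 on FF arrays at WT Pico, between 5.35 and 5.44 at FF 100 ng, between 5.43 and 5.55 at FFPE 50 ng and between 5.62 and 5.80 on FFPE arrays at WT Pico. On each array 29 to 35 of the 36 genes lay above the array's own median. By mean over all arrays, Cycs and Ndufab1 (each at percentile 32.2), Cox5b (44.9) and Cox7b (48.1) were in the dimmer part of the probe sets. The part of background signal in their changes was not tested. Among replicate arrays the root mean square SD of the 36 genes was 0.09 to 0.18 in the 6 FF groups and 0.14 to 0.28 in the 6 FFPE groups. The number of arrays limits the precision. Nothing in the labels says that replicates came from separate cultures or animals, so p-values measure only the spread between these arrays, which may be technical. The arrays are of bulk RNA, where fewer cells of a type and less RNA per cell cannot be told apart. Markers of urothelium, muscle, stroma and blood cells could not be matched to the identifiers and were not analysed here, so their part in any result was not tested.

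In frozen RNA most of the 36 genes that differed were higher in BC57 than in urothelium, by modest amounts. At FF 100 ng, the condition with the most RNA, 20 of 36 rose in BC57 and 3 fell, where 27.6% of all probe sets rose and 23.1% fell. A gene is said to rise or fall where limma's adjusted p over all probe sets was under 0.05. Complex III had the largest median change of the complexes at 0.72, with 3 of 5 genes higher and 1 lower. Complex I had 8 of 13 higher and 2 lower (median 0.29), complex II 3 of 4 higher (0.34), complex IV 3 of 9 higher (0.15) and complex V 3 of 4 higher (0.27). One gene, Sdhd, rose more than 2-fold, where 8.06% of all probe sets did so. The median log2 change was 0.27 over the 36 genes, 0.07 over all probe sets and 0.19 over the 4248 brightest probe sets, which held 23 of the 36. Quantile normalization over all arrays gave 12 higher and 4 lower.

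The same comparison was repeated with less frozen RNA. At FF 2 ng 21 of 36 genes rose and 3 fell, against 33.7% and 23.3% of all probe sets, and 1 rose more than 2-fold (7.63%). At FF 0.5 ng 23 rose and 3 fell, against 25.0% and 18.8%, and 3 rose more than 2-fold (8.11%). The median change of the 36 genes was 0.35 at FF 0.5 ng and 0.28 at FF 2 ng, beside 0.07 and 0.10 over all probe sets. Over the brightest probe sets it was 0.24 at FF 0.5 ng and 0.18 at FF 2 ng. More of the set than of all probe sets rose at each of the 3 frozen inputs, and less of it fell. The 3 inputs drew on the same pellet and the same urothelium, so they repeat the measurement and not the biology.

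Complex II, succinate dehydrogenase, links the citric acid cycle to the chain, and it held the largest change of the set at FF 100 ng. Sdhd (ENSMUSG00000000171_at), a membrane anchor subunit that helps bind ubiquinone, read 9.72 and 9.56 in BC57, against 8.10 and 7.995 in urothelium, at FF 100 ng. At FF 2 ng it read 8.91, 8.89 and 8.95 in BC57, against 7.85, 7.88 and 7.89 in urothelium, and at FF 0.5 ng 8.97, 8.83 and 8.79 in BC57, against 7.97, 7.61 and 7.78 in urothelium. Every BC57 array was above every urothelium array at all 3 inputs, and the urothelium arrays at 2 ng were nearly equal. The log2 change with its standard error was 1.08 ± 0.11 at 0.5 ng, 1.04 ± 0.05 at 2 ng and 1.59 ± 0.08 at 100 ng, with adjusted p of 7.97e-06, 5.68e-08 and 1.28e-05, and the last is 3.01-fold. Sdhb (ENSMUSG00000009863_at), the iron-sulfur subunit that passes electrons on from the flavoprotein, read 8.84 and 8.69 in BC57, against 8.29 and 8.42 in urothelium, at FF 100 ng. It rose by 0.46 ± 0.07, 0.36 ± 0.06 and 0.41 ± 0.08 at 0.5, 2 and 100 ng, with no overlap of arrays at any of them. Sdhc, the other membrane anchor, rose at FF 100 ng by 0.26 and changed by 0.17 and -0.03 at 0.5 and 2 ng without passing the test. Sdha, the flavoprotein that oxidises succinate, rose at FF 0.5 ng only, by 0.23, with 0.03 at 2 ng and 0.20 at 100 ng.

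Complex III carries electrons from ubiquinol to cytochrome c, and its genes split into 3 that were higher in BC57 and 1 that was lower. Uqcrc1 (ENSMUSG00000025651_at), a core protein on the matrix side, read 10.22 and 10.03 in BC57, against 9.40 and 9.29 in urothelium, at FF 100 ng. At FF 2 ng it read 10.08, 10.07 and 10.12 in BC57, against 9.51, 9.49 and 9.54 in urothelium, and at FF 0.5 ng 10.16, 10.07 and 10.07 in BC57, against 9.31, 9.45 and 9.39 in urothelium. The groups did not overlap at any frozen input, and at 2 ng the arrays of each group lay close together. The change was 0.71 ± 0.07, 0.58 ± 0.05 and 0.78 ± 0.09 at 0.5, 2 and 100 ng (adjusted p of 7.88e-06, 3.26e-06 and 0.000455). Uqcrfs1 (ENSMUSG00000038462_at), the Rieske iron-sulfur protein, read 6.74 and 6.97 in BC57, against 6.18 and 5.97 in urothelium, at FF 100 ng. It rose by 0.96 ± 0.09, 0.89 ± 0.08 and 0.78 ± 0.11 at 0.5, 2 and 100 ng, with every BC57 array above every urothelium array. Uqcrq, a small subunit near the quinone site, rose by 0.84, 0.70 and 0.72 at the same inputs. Uqcrc2, the other core protein, did not pass the test at any frozen input, with changes of -0.01, -0.08 and 0.15.

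Uqcrh (ENSMUSG00000063882_at), the hinge protein that contacts cytochrome c, went the other way. It read 5.79 and 5.85 in BC57, against 6.56 and 6.53 in urothelium, at FF 100 ng. At FF 2 ng it read 6.69, 6.88 and 7.04 in BC57, against 7.56, 7.25 and 7.49 in urothelium, and at FF 0.5 ng 6.74, 6.78 and 6.67 in BC57, against 7.35, 7.52 and 7.36 in urothelium. Every BC57 array was below every urothelium array at each frozen input. The change was -0.68 ± 0.10, -0.56 ± 0.10 and -0.72 ± 0.06 at 0.5, 2 and 100 ng (adjusted p of 0.000153, 0.00106 and 0.000134). No other gene of the set fell at all 3 frozen inputs.

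The promoters of the gene with the largest rise at FF 100 ng, of the complex III core protein and of the gene that fell are shown because these genes moved beyond replicate spread in frozen RNA, in opposite directions. RefSeq promoter windows of build GRCm38.p6, running from 250 bases before to 50 bases after the gene start, were found by symbol for 27 of the 36 genes. Capitals mark matches, on either strand, to motifs of factors known for nuclear respiratory genes: the NRF1 palindrome, the ETS core CCGGAAG bound by GABP, the YY1 core AAGATGGC and the ERR half-site AAGGTCA. The Sdhd window lies at chr9:50603800-50604099 on the minus strand, that of Uqcrc1 at chr9:108936398-108936697 on the plus strand and that of Uqcrh at chr4:116075021-116075320 on the minus strand.
Sdhd: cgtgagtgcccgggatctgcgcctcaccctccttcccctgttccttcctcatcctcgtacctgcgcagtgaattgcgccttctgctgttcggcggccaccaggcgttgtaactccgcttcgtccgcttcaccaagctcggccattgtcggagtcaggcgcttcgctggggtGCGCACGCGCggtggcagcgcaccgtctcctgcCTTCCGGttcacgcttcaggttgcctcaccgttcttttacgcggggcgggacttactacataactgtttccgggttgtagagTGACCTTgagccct
Uqcrc1: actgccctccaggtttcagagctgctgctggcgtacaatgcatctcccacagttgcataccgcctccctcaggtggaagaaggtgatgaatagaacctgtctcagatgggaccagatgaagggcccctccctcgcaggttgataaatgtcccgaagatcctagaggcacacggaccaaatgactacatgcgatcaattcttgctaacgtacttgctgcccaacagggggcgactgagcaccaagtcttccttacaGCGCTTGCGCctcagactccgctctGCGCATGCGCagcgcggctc
Uqcrh: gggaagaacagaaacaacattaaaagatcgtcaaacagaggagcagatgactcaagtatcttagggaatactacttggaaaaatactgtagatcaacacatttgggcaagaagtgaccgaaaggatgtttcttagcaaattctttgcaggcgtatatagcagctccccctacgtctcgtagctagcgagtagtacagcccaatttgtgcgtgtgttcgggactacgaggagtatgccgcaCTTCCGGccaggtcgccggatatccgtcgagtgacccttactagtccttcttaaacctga

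The Sdhd window held 1 match each to the NRF1, ETS and ERR motifs, the Uqcrc1 window 2 to NRF1, and the Uqcrh window 1 to ETS, none of them overlapping another. Over the 27 windows the NRF1 motif occurred in 4 (14.8%), beside 4.78% of 27025 promoters. The ETS core occurred in 8 (29.6%), beside 9.12%, the YY1 core in 1 (3.70%), beside 2.88%, and the ERR half-site in 1 (3.70%), beside 4.66%. The windows of the set had a median GC content of 57.3%, beside 52.7% over all promoters. Of the 8 genes with an ETS match, Uqcrh and Ndufs3 fell in BC57 in 3 of the 6 conditions of preservation and input. The others, Sdhd, Sdhb, Cox6a1, Cox6b1, Cox8a and Ndufs8, rose in 4 to 6 conditions. Of genes with no ETS match found, counting any without a window, Ndufa2, Ndufb9, Ndufv1, Uqcrc1, Uqcrq, Cox5a, Atp5a1 and Atp5b rose in all 6. Cox6c, Cox7c, Atp5c1 and Ndufab1, also with none found, rose in no condition. Windows were found for 27 of the 36 genes, so apart from Uqcrc1 a gene listed here with none found may not have been searched. Whether an ETS match goes with a rise was not tested. A match is only a run of letters in the window, and binding was not measured.

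Complex I, NADH dehydrogenase, gave 8 of 13 higher and 2 lower at FF 100 ng, 7 and 2 at FF 2 ng and 8 and 1 at FF 0.5 ng. Ndufs1 (ENSMUSG00000025968_at), a core subunit carrying iron-sulfur clusters, read 7.50 and 7.51 in BC57, against 6.60 and 6.65 in urothelium, at FF 100 ng. It rose by 0.45 ± 0.12, 0.47 ± 0.10 and 0.88 ± 0.06 at 0.5, 2 and 100 ng, with no overlap between the groups. Ndufa4 (ENSMUSG00000029632_at), named for complex I but in human cells found with complex IV, read 10.30 and 10.18 in BC57, against 9.57 and 9.43 in urothelium, at FF 100 ng. Its arrays did not overlap at any input either, and it rose by 1.03 ± 0.09, 0.69 ± 0.06 and 0.74 ± 0.08. The core subunits Ndufv1, which binds NADH and flavin, and Ndufs8, which carries iron-sulfur clusters, rose at all 3 inputs, by 0.25 to 0.28 and 0.32 to 0.58. The accessory subunit Ndufa10 rose at 100 ng (0.29) and 0.5 ng (0.32). Rises at all 3 inputs were also seen in the accessory subunits Ndufa2 (0.14 to 0.40), Ndufa9 (0.22 to 0.42) and Ndufb9 (0.40 to 0.66). Ndufs3, a core subunit near the quinone end, fell at FF 100 ng by -0.30 and at FF 2 ng by -0.25, with -0.25 at FF 0.5 ng. The call at 2 ng was lost without urothelium replicate 1 or 2 or BC57 replicate 2 or 3 (adjusted p of 0.0584 to 0.104, change of -0.26 to -0.20) and in one fit of all 32 arrays (0.0889). Ndufab1, the mitochondrial acyl carrier protein, fell at FF 100 ng (-0.33), and Ndufa1, a small membrane subunit, fell at FF 2 ng (-0.25) and FF 0.5 ng (-0.23). The accessory subunit Ndufb10 (-0.09 to 0.19) passed at no frozen input.

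Complex IV, cytochrome c oxidase, had 3 of its 9 genes higher in BC57 at FF 100 ng, 5 at FF 2 ng, and 5 higher with 1 lower at FF 0.5 ng. Cox5a (ENSMUSG00000000088_at), an early-assembled subunit on the matrix side, read 9.52 and 9.40 in BC57, against 8.49 and 8.51 in urothelium, at FF 100 ng. At FF 2 ng it read 9.31, 10.08 and 9.76 in BC57, against 9.05, 9.09 and 9.08 in urothelium, and at FF 0.5 ng 9.77, 9.80 and 9.29 in BC57, against 8.89, 8.87 and 8.76 in urothelium. The BC57 arrays at 0.5 and 2 ng were scattered more widely than the urothelium arrays, and even the lowest was above every one of them. The change was 0.78 ± 0.12, 0.64 ± 0.15 and 0.96 ± 0.07 at 0.5, 2 and 100 ng (adjusted p of 0.000337, 0.00483 and 5.31e-05). Cox5b (ENSMUSG00000061518_at), the zinc-binding subunit, read 4.87 and 4.94 in BC57, against 4.61 and 4.44 in urothelium, at FF 100 ng. It rose there by 0.38 ± 0.08, a call lost without BC57 replicate 2 (0.35, adjusted p = 0.0514) and in one fit of all 32 arrays (0.176), and by 0.68 ± 0.15 at 2 ng. At 0.5 ng the groups overlapped and the change of 0.18 ± 0.15 did not pass. Of the small structural subunits, Cox6a1 (0.31 and 0.40), Cox6b1 (0.34 and 0.45) and Cox7b (0.34 and 0.53) rose at 2 and 0.5 ng and not at 100 ng, and Cox8a rose at 100 ng (0.29) and 0.5 ng (0.38). Cox7c fell at FF 0.5 ng by -0.54, which did not hold without urothelium replicate 2 (-0.41, adjusted p = 0.052) or BC57 replicate 3 (-0.45, 0.0536). Cox6c and Cox7a2 passed at no frozen input.

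Complex V, ATP synthase, had the same 3 of its 4 genes higher in BC57 at every frozen input. Atp5b (ENSMUSG00000025393_at), the catalytic beta subunit, read 8.93 and 8.91 in BC57, against 8.58 and 8.70 in urothelium, at FF 100 ng. At FF 2 ng it read 9.28, 9.42 and 9.51 in BC57, against 9.09, 9.08 and 9.08 in urothelium. The groups did not overlap at either input. The change was 0.39 ± 0.08, 0.32 ± 0.06 and 0.28 ± 0.07 at 0.5, 2 and 100 ng, and at 100 ng it was lost without urothelium replicate 1 (0.22, adjusted p = 0.0862) and under quantile normalization (0.06, 0.413). Atp5d (ENSMUSG00000003072_at), the delta subunit of the rotor stalk, read 7.47 and 7.65 in BC57, against 7.04 and 6.91 in urothelium, at FF 100 ng. Its groups did not overlap at any frozen input, and it rose by 0.38 ± 0.10, 0.50 ± 0.09 and 0.59 ± 0.08. Atp5a1, the alpha subunit, rose by 0.41, 0.33 and 0.25, and Atp5c1, the gamma subunit of the shaft, did not pass (-0.06, 0.11 and -0.16).

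Cycs (ENSMUSG00000063694_at), somatic cytochrome c, which shuttles electrons between complexes III and IV, had the widest replicate spread of the 36 genes in each of the 3 FF urothelium groups. Cycs was dim, with a mean over all arrays of 4.69, at percentile 32.2 of all probe sets. It read 4.41 and 4.34 in BC57, against 3.54 and 4.18 in urothelium, for FF 100 ng, and 5.27, 5.66 and 5.98 in BC57, against 4.63, 5.06 and 4.70 in urothelium, at FF 2 ng. At FF 0.5 ng it read 5.54, 5.55 and 5.55 in BC57, against 3.96, 5.48 and 4.16 in urothelium. One urothelium array at 0.5 ng stood well above the others of its group, yet below all BC57 arrays. The change was 0.52 ± 0.20 at 100 ng without passing (adjusted p = 0.0717), 0.84 ± 0.17 at 2 ng (adjusted p = 0.00205) and 1.02 ± 0.31 at 0.5 ng (adjusted p = 0.021). The call at 0.5 ng was lost without urothelium replicate 1 (0.73) or 3 (0.83) or BC57 replicate 3 (1.01), with adjusted p of 0.0618 to 0.0727. At 100 ng the change passed without urothelium replicate 2 (0.84, adjusted p = 0.000455) and after centring (0.59, 0.0479).

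**Figure D1:**
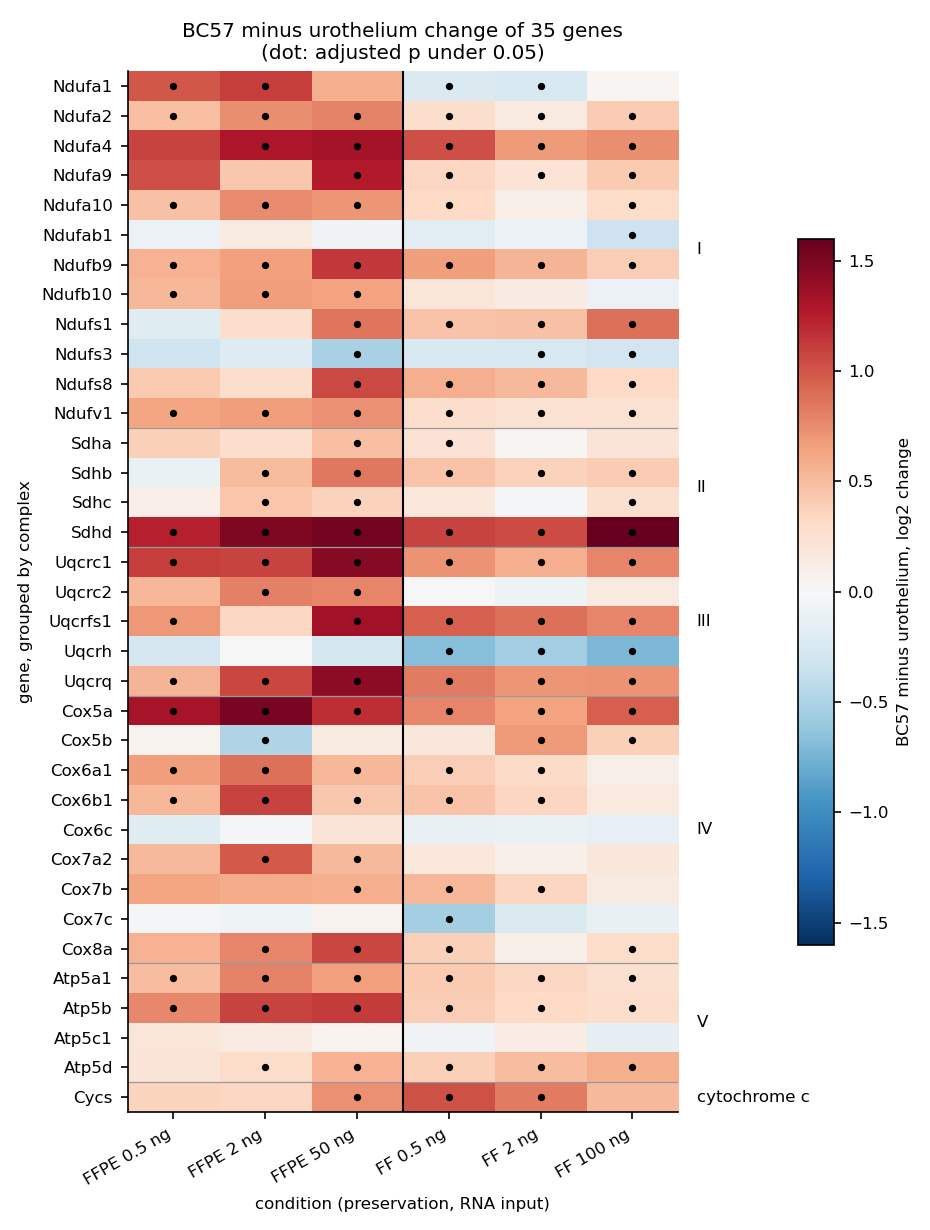
Log2 change, BC57 minus urothelium, of 35 of the 36 genes (rows, grouped by complex) in the 6 conditions of preservation and RNA input (columns, FFPE left of FF, each from low to high input), with red for higher and blue for lower in BC57 and a dot where the adjusted p was under 0.05. Most cells are red, with deeper reds in the FFPE columns, Sdhd, Uqcrc1 and Cox5a are red throughout, and Uqcrh is blue at the 3 FF inputs.

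In FFPE RNA most of the genes that passed were again higher in BC57. At FFPE 50 ng 28 of 36 genes rose in BC57 and 1 fell, where 24.0% of all probe sets rose and 19.9% fell, and 11 rose more than 2-fold (9.19%). At FFPE 2 ng 22 rose and 1 fell, against 18.4% and 20.2%, and 8 rose more than 2-fold (4.94%). At FFPE 0.5 ng 15 rose and 0 fell in limma's test, against 8.97% and 7.36%, 3 rose more than 2-fold (3.05%), and 23 had an unadjusted p under 0.05 (31.7%). The median change of the 36 genes was 0.50, 0.63 and 0.68 at 0.5, 2 and 50 ng, where that of all probe sets was -0.08, -0.10 and -0.01 and that of the brightest probe sets 0.23, 0.34 and 0.40. Every complex had a median above 0 at each FFPE input, from 0.25 for complex II at 0.5 ng to 1.34 for complex III at 50 ng. Without BC57 replicate 3 the count at 0.5 ng fell to 7. Quantile normalization over all arrays left 5 higher and 0 lower at 0.5 ng. It left 16 and 0 at 2 ng and 19 and 2 at 50 ng. The median of the set was then 0.30, 0.34 and 0.34 at 0.5, 2 and 50 ng. That of all probe sets was -0.03, -0.03 and 0.01. The SD over all probe sets was higher on BC57 than on urothelium arrays at each FFPE input. At 2 ng it was 1.59 to 1.64 in BC57 and 1.44 to 1.47 in urothelium. Its part in these differences was not tested.

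Sdhd rose at each FFPE input and Sdhb at 2 of the 3. Sdhd read 9.60 and 9.44 in BC57, against 8.13 and 7.85 in urothelium, for FFPE 50 ng, and 8.69, 8.55 and 8.82 in BC57, against 7.47, 7.09 and 7.03 in urothelium, at FFPE 2 ng. At FFPE 0.5 ng it read 8.46, 7.98 and 8.36 in BC57, against 7.60, 6.66 and 6.82 in urothelium. The groups did not overlap at any FFPE input, though 1 urothelium array at 0.5 ng stood well above the others. The change was 1.24 ± 0.26, 1.49 ± 0.14 and 1.53 ± 0.13 at 0.5, 2 and 50 ng (adjusted p of 0.0179, 8.12e-05 and 0.000203). The call at 0.5 ng was lost without urothelium replicate 2 or 3 or BC57 replicate 1 or 3 (adjusted p of 0.0505 to 0.0633, change of 1.06 to 1.197) and under quantile normalization (0.0563). Sdhb read 8.82 and 8.59 in BC57, against 7.96 and 7.76 in urothelium, for FFPE 50 ng, and 6.85, 7.10 and 7.29 in BC57, against 7.61, 7.03 and 6.93 in urothelium, at FFPE 0.5 ng. It rose by 0.84 ± 0.12 at 50 ng and 0.51 ± 0.11 at 2 ng, and its groups overlapped at 0.5 ng (-0.11 ± 0.20). The call at 2 ng was lost under quantile normalization (0.28, adjusted p = 0.172).

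In FFPE RNA 0 of the 5 complex III genes fell in BC57, and 3, 3 and 4 rose at 0.5, 2 and 50 ng. Uqcrc1 read 9.47 and 9.19 in BC57, against 7.99 and 7.76 in urothelium, for FFPE 50 ng, and 7.83, 7.91 and 7.65 in BC57, against 7.06, 6.77 and 6.33 in urothelium, at FFPE 2 ng. At FFPE 0.5 ng it read 7.78, 7.96 and 7.96 in BC57, against 6.68, 6.94 and 6.74 in urothelium. No BC57 array came down to the urothelium arrays at any input. It rose by 1.11 ± 0.11, 1.08 ± 0.17 and 1.45 ± 0.14 at 0.5, 2 and 50 ng. Uqcrfs1 read 7.62 and 6.95 in BC57, against 6.17 and 5.72 in urothelium, for FFPE 50 ng, and 6.84, 7.09 and 6.76 in BC57, against 6.84, 6.33 and 6.51 in urothelium, at FFPE 2 ng. It rose by 1.34 ± 0.25 at 50 ng, did not pass at 2 ng (0.34 ± 0.15), where the groups met, and rose by 0.69 ± 0.15 at 0.5 ng. The call at 0.5 ng was lost without BC57 replicate 1 or 2 (adjusted p of 0.0734 to 0.0739), and the change at 2 ng passed after centring (0.45, adjusted p = 0.0464) and without urothelium replicate 1 (0.48, 0.0315). Uqcrh read 7.08, 7.13 and 7.15 in BC57, against 6.93, 7.36 and 7.05 in urothelium, at FFPE 2 ng, and did not pass at any FFPE input (-0.27, 0.01 and -0.28 at 0.5, 2 and 50 ng). The 3 frozen inputs showed it lower in BC57, and its test of the difference between preservations is given below. Uqcrc2 rose at 50 ng (0.78) and 2 ng (0.81).

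Among complex I genes Ndufa4 read 11.83 and 11.72 in BC57, against 10.66 and 10.24 in urothelium, for FFPE 50 ng, and 9.59, 8.77 and 8.90 in BC57, against 8.005, 8.59 and 7.40 in urothelium, at FFPE 0.5 ng. It rose by 1.33 ± 0.17 at 50 ng and 1.29 ± 0.20 at 2 ng. At 0.5 ng no arrays overlapped, and the change of 1.09 ± 0.33 missed the threshold (adjusted p = 0.0664), which it passed without urothelium replicate 2 (0.0329) and in one fit of all 32 arrays (0.000401). Ndufs1 read 6.66 and 6.65 in BC57, against 5.82 and 5.78 in urothelium, for FFPE 50 ng, and 5.47, 5.62 and 5.43 in BC57, against 5.76, 5.80 and 5.54 in urothelium, at FFPE 0.5 ng. BC57 was higher on every array at 50 ng (0.85 ± 0.08), while at 0.5 ng the groups overlapped (-0.20 ± 0.11). Ndufa1, lower in BC57 at FF 2 ng and 0.5 ng, rose in FFPE by 1.10 at 2 ng and 0.996 at 0.5 ng. Ndufs3 again fell, at FFPE 50 ng, by -0.51.

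Cox5a of complex IV and Atp5b of complex V rose at each FFPE input, and Cox5b at none. Cox5a read 10.79 and 10.47 in BC57, against 9.73 and 9.16 in urothelium, for FFPE 50 ng, and 9.14, 9.31 and 9.22 in BC57, against 7.60, 7.93 and 7.58 in urothelium, at FFPE 2 ng. At FFPE 0.5 ng it read 9.05, 9.01 and 9.11 in BC57, against 7.84, 8.04 and 7.34 in urothelium. BC57 arrays lay close together at 0.5 ng, far above the highest urothelium array. It rose by 1.31 ± 0.18, 1.52 ± 0.12 and 1.19 ± 0.21 at 0.5, 2 and 50 ng. Cox5b read 5.06, 4.67 and 5.29 in BC57, against 5.60, 5.47 and 5.39 in urothelium, at FFPE 2 ng, where it fell by -0.48 ± 0.16, with no overlap. That call was lost in 5 of 6 fits with 1 array left out, all but the fit without BC57 replicate 3 (adjusted p of 0.065 to 0.12), and when arrays were centred (-0.37) or quantile normalized (-0.37). At 0.5 and 50 ng the change of Cox5b was 0.05 and 0.15, neither of which passed. Atp5b read 8.92 and 8.97 in BC57, against 7.95 and 7.69 in urothelium, for FFPE 50 ng, and 7.999, 8.19 and 8.06 in BC57, against 7.34, 7.35 and 7.27 in urothelium, at FFPE 0.5 ng. It rose by 0.76 ± 0.10, 1.08 ± 0.10 and 1.12 ± 0.11 at 0.5, 2 and 50 ng, with no overlap. Atp5d read 7.46 and 7.55 in BC57, against 6.92 and 6.98 in urothelium, at FFPE 50 ng and rose by 0.55 ± 0.09. Its change was 0.30 ± 0.09 at 2 ng, a call lost in 5 of 6 fits with 1 array left out, all but the fit without urothelium replicate 2 (adjusted p of 0.0558 to 0.0977), and under quantile normalization (0.162), and 0.21 ± 0.11 at 0.5 ng without passing. Cycs read 4.53 and 4.45 in BC57, against 3.74 and 3.77 in urothelium, at FFPE 50 ng, where it rose by 0.73 ± 0.10, and it did not pass at 0.5 ng (0.36 ± 0.16) or 2 ng (0.34 ± 0.26). Without urothelium replicate 3 the change at 2 ng was 0.68 and passed (adjusted p = 0.00554), and at 50 ng it did not pass in one fit of all 32 arrays (0.0976).

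Over the 6 conditions, 23 of the 36 genes had a positive BC57 minus urothelium change in each, where 23.1% of all probe sets did, and 1, Ndufs3, a negative one in each (21.2%). The 9 genes that rose in all 6, as 7.51% of all probe sets did, were Ndufa2, Ndufb9 and Ndufv1 of complex I, Sdhd of complex II, Uqcrc1 and Uqcrq of complex III, Cox5a of complex IV, and Atp5a1 and Atp5b of complex V. In 12 genes every BC57 array was above every urothelium array of its condition in all 6 (11.2%). Counting each condition alone, 30 genes rose in at least 1 (42.1%) and 6 fell in at least 1 (37%), namely Cox5b, Cox7c, Ndufa1, Ndufab1, Ndufs3 and Uqcrh. Of these, Cox5b and Ndufa1 rose in one condition and fell in another. Cox6c and Atp5c1 passed in none.

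**Figure D2:**
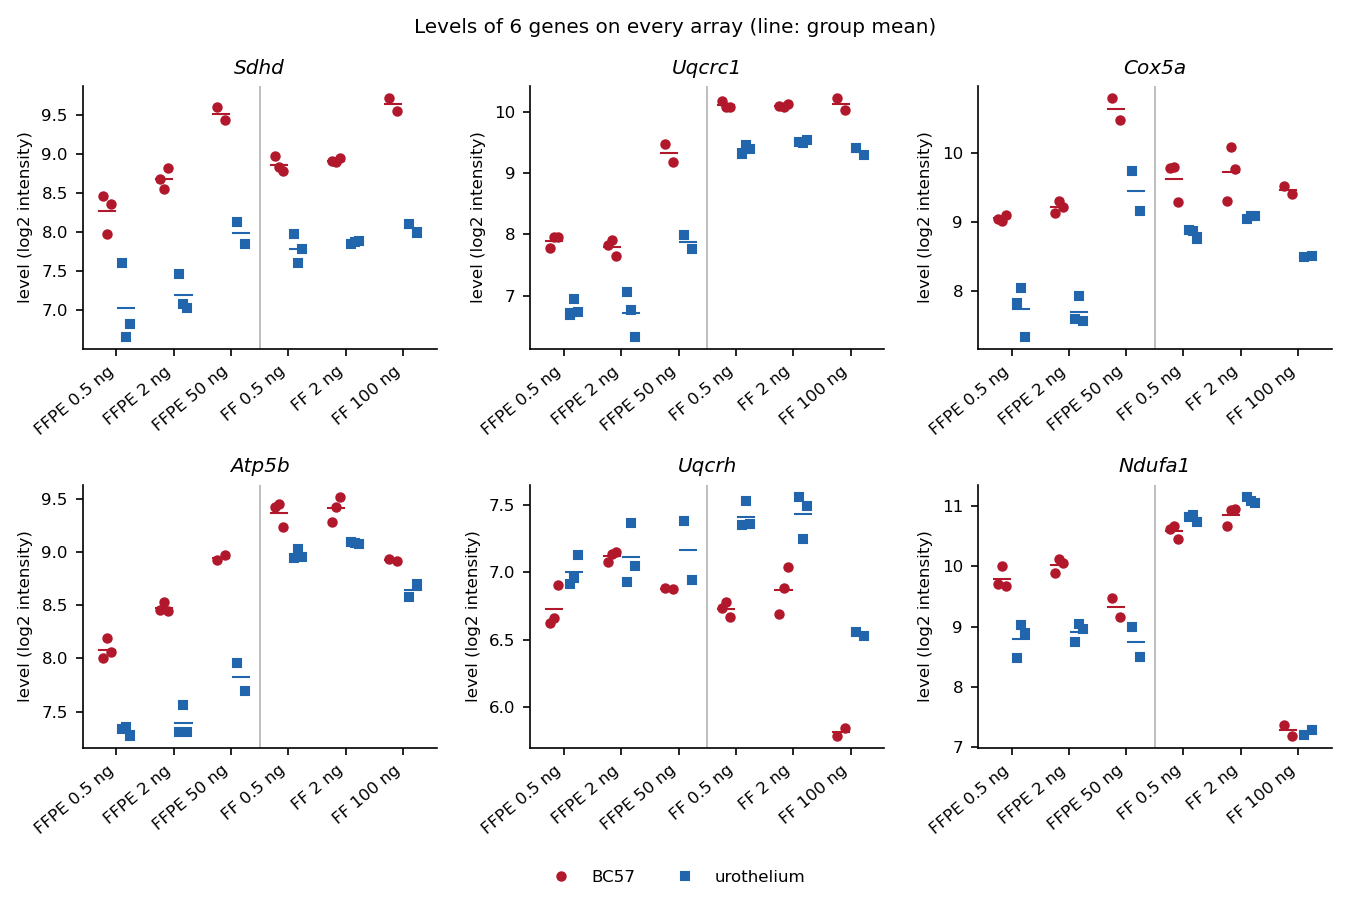
Level (log2 intensity, vertical axis) of 6 genes on every array in the 6 conditions (horizontal axis, FFPE left of FF, each from low to high input), BC57 as red circles left of urothelium as blue squares, with a line at each group mean. Sdhd, Uqcrc1, Cox5a and Atp5b were higher on every BC57 array in each condition, Uqcrh was lower in BC57 at the FF inputs, and Ndufa1 lay between 7.18 and 7.37 at FF 100 ng and between 10.45 and 11.15 at FF 0.5 and 2 ng.

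Whether the BC57 minus urothelium difference itself differed between preservations was tested as an interaction, FFPE minus FF, at matched input. At 2 ng 17 of the 36 genes had a larger (more positive) difference in FFPE and 2 a smaller one, where 17.1% and 24.8% of all probe sets did. The median interaction was 0.41 over the 36 genes, 0.26 over the brightest probe sets and -0.15 over all probe sets. Ndufa1 had the largest, 1.35 ± 0.15 (adjusted p = 2.21e-05), being lower in BC57 in FF and higher in FFPE RNA, followed by Cox7a2 (0.90 ± 0.21) and Uqcrc2 (0.89 ± 0.13). Cox7a2 did not pass under quantile normalization (0.39, adjusted p = 0.137). Uqcrh gave 0.57 ± 0.17 (adjusted p = 0.0189). The 2 with a smaller difference in FFPE were Cox5b (-1.16 ± 0.24) and Uqcrfs1 (-0.55 ± 0.18), and Uqcrfs1 lost the call in 5 of the 12 fits that left out 1 array (adjusted p of 0.0519 to 0.067) after centring (0.066) and under quantile normalization (0.219). Under quantile normalization 8 genes passed in place of 19. At 0.5 ng 1 gene had a larger difference in FFPE, Ndufa1 (1.22 ± 0.20), and 1 a smaller one, Ndufs1 (-0.65 ± 0.16), where 9.13% and 10.3% of all probe sets did, and quantile normalization gave 1 larger and 0 smaller, Ndufs1 then being at -0.52 (adjusted p = 0.0852). With kit and input changing too, FFPE 50 ng minus FF 100 ng gave 8 larger and 0 smaller in limma's test, where 6.68% and 3.55% of all probe sets did, and 22 with an unadjusted p under 0.05 (26.9%). The largest of the 8 was Ndufa9 (0.85 ± 0.10, adjusted p = 0.00421), which did not pass in one fit of all 32 arrays (0.366), and next Atp5b (0.84 ± 0.13), whose call was lost without urothelium or BC57 FF 100 ng replicate 2 (adjusted p of 0.0522 to 0.055). Leaving out 1 array moved that count of 8 between 4 (without urothelium FF 100 ng replicate 1) and 12 (without urothelium FFPE 50 ng replicate 1), and quantile normalization gave 5 larger and 1 smaller.

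As deposited, most of the 36 genes read lower in FFPE than in FF RNA at matched input. In urothelium at 2 ng 26 of 36 genes fell in FFPE RNA relative to FF and 5 rose, where 28.3% of all probe sets fell and 54.9% rose, and 18 fell more than 2-fold (10.3%). In BC57 at 2 ng 26 fell and 4 rose, against 23.8% and 50.2%, and 8 fell more than 2-fold (5.54%). At 0.5 ng 26 fell and 3 rose in BC57, against 24.1% and 52.3%, and 26 fell and 4 rose in urothelium, against 24.4% and 55.1%. More than 2-fold falls at 0.5 ng numbered 12 in BC57 (8.36%) and 17 in urothelium (10.2%). At 2 ng the median change was -0.56 in BC57 and -1.02 in urothelium, where all probe sets had 0.28 and 0.39 and the brightest probe sets -0.46 and -0.74. The median at 0.5 ng was -0.77 for BC57 and -0.86 for urothelium, where all probe sets had 0.39 and 0.47 and the brightest probe sets -0.62 and -0.69. The set thus moved against the median of all probe sets and with, though further than, the brightest probe sets. Relative to the median of all probe sets its median was -0.84 in BC57 and -1.41 in urothelium at 2 ng, and -1.15 in BC57 and -1.33 in urothelium at 0.5 ng. With each array centred on its own median the split became 0 rising and 28 falling in BC57 and 0 and 31 in urothelium at 2 ng, and 0 and 31 in BC57 and 0 and 30 in urothelium at 0.5 ng. Quantile normalization brought the median of the set nearer to 0, at -0.17 in BC57 and -0.40 in urothelium at 2 ng and at -0.096 in BC57 and -0.33 in urothelium at 0.5 ng. It gave 6 rising and 13 falling in BC57 and 4 and 23 in urothelium at 2 ng, and 2 and 14 in BC57 and 2 and 19 in urothelium at 0.5 ng. The share of all probe sets called was not computed for either setting, so these counts have no such baseline. The median over all probe sets was -0.01 to 0.06 after centring and 0.01 to 0.04 under quantile normalization. The range of intensities was itself narrower on FFPE arrays. At WT Pico the SD over all probe sets was 1.49 to 1.64 on BC57 FFPE arrays and 1.37 to 1.47 on urothelium FFPE arrays. On FF arrays at WT Pico it was 1.91 to 1.999 in BC57 and 1.89 to 1.97 in urothelium. The part of this range in the falls was not tested.

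Most falls were shared by the cell types. At 2 ng 23 genes fell in both, where 18% of all probe sets did, 3 rose in both (42.3%) and 1, Cox5b, rose in urothelium and fell in BC57. At 0.5 ng 24 fell in both (16.8%) and 2 rose in both (45.1%). Ndufa9 (ENSMUSG00000000399_at), an accessory subunit at the junction of the arms of complex I, fell furthest. It read 6.55, 7.14 and 6.89 on FFPE arrays, against 10.02, 9.99 and 10.07 on FF arrays, in BC57 at 2 ng. Its urothelium values were 6.52, 6.01 and 6.74 on FFPE arrays, against 9.77, 9.83 and 9.82 on FF arrays. FF arrays agreed closely in both cell types and FFPE arrays lay far below them and spread more. The change was -3.17 ± 0.17 in BC57 and -3.38 ± 0.17 in urothelium (adjusted p of 2.3e-08 and 3.99e-09), and at 0.5 ng -2.93 ± 0.33 and -3.64 ± 0.33. Uqcrc1, whose 2 ng values are given above, fell by -2.29 ± 0.14 in BC57 and -2.79 ± 0.14 in urothelium at 2 ng, with no overlap between FFPE and FF arrays. Ndufs8 (-2.13 in BC57 and -1.88 in urothelium), Uqcrq (-1.57 in BC57 and -1.94 in urothelium) and Sdha (-1.22 in BC57 and -1.47 in urothelium) also fell more than 2-fold in both at 2 ng.

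The fall differed between cell types for some genes and was not shown to differ for others. Atp5b read 8.45, 8.53 and 8.44 on FFPE arrays, against 9.28, 9.42 and 9.51 on FF arrays, in BC57 at 2 ng. The urothelium values were 7.30, 7.56 and 7.31 on FFPE arrays, against 9.09, 9.08 and 9.08 on FF arrays. FFPE arrays were below all FF arrays in both cell types, by -0.93 ± 0.08 in BC57 and -1.69 ± 0.08 in urothelium, and the interaction of 0.76 ± 0.12 passed (adjusted p = 0.000375). Sdhb read 7.59, 7.40 and 7.77 on FFPE arrays, against 9.36, 9.37 and 9.39 on FF arrays, in BC57 at 2 ng. In urothelium it read 7.12, 6.998 and 7.12 on FFPE arrays, against 8.93, 9.05 and 9.05 on FF arrays. It fell in both, by -1.78 ± 0.09 in BC57 and -1.93 ± 0.09 in urothelium, and its interaction did not pass (0.14 ± 0.13, adjusted p = 0.375). Ndufa4 read 9.39, 9.34 and 9.50 on FFPE arrays, against 10.10, 10.05 and 10.14 on FF arrays, in BC57 at 2 ng. In urothelium it read 7.67, 8.11 and 8.58 on FFPE arrays, against 9.31, 9.44 and 9.47 on FF arrays. The fall was -0.69 ± 0.17 in BC57 and -1.29 ± 0.17 in urothelium as deposited, and -0.10 and -0.25 without passing under quantile normalization. The Ndufa4 interaction of 0.60 did not pass as deposited. It passed after centring (0.70, adjusted p = 0.0355) and without urothelium FFPE replicate 3 (0.83, 0.00202). It also passed among the brighter probe sets (0.0447) and with a replicate block (0.0355). Cox5a fell by -0.50 ± 0.16 in BC57 and -1.37 ± 0.16 in urothelium at 2 ng, and in BC57 quantile normalization turned it to 0.18 and leaving out FF replicate 2 ended the call (-0.31, adjusted p = 0.0623). The Cox5a interaction of 0.88 passed as deposited and did not under quantile normalization (0.55, adjusted p = 0.0783). Sdhd fell in urothelium by -0.68 ± 0.11 and changed by -0.23 ± 0.11 in BC57 at 2 ng without passing. Quantile normalization gave 0.01 in urothelium and 0.46 in BC57, the latter passing as a rise (adjusted p = 0.0336). In BC57 centring moved Sdhd to -0.52, which passed as a fall (adjusted p = 0.00189). The fall also passed without BC57 FFPE replicate 3 (-0.30, 0.0346) and without urothelium FFPE replicate 1 (0.0155). The direction called in BC57 thus depended on the normalization.

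Few genes rose in FFPE at matched input. Those rising in both cell types at 2 ng were Cox6c (0.41 in BC57 and 0.34 in urothelium), Ndufab1 (0.48 in BC57 and 0.24 in urothelium) and Ndufs3 (0.47 in BC57 and 0.42 in urothelium), and after centring no gene of the set rose. Cox5b read 5.81, 5.17 and 5.49 on FF arrays in BC57 at 2 ng, the FFPE arrays being given above, and fell by -0.49 ± 0.17 there. The call was lost without BC57 FF replicate 1 (-0.33, adjusted p = 0.0982) or BC57 FFPE replicate 2 (-0.32, 0.0984). In urothelium Cox5b read 4.74, 4.99 and 4.71 on FF arrays and rose by 0.67 ± 0.17 in FFPE, which did not pass after centring (0.28) or under quantile normalization (0.11). Atp5d rose in urothelium by 0.30 ± 0.09 at 2 ng as deposited and was at -0.08 after centring.

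**Figure D3:**
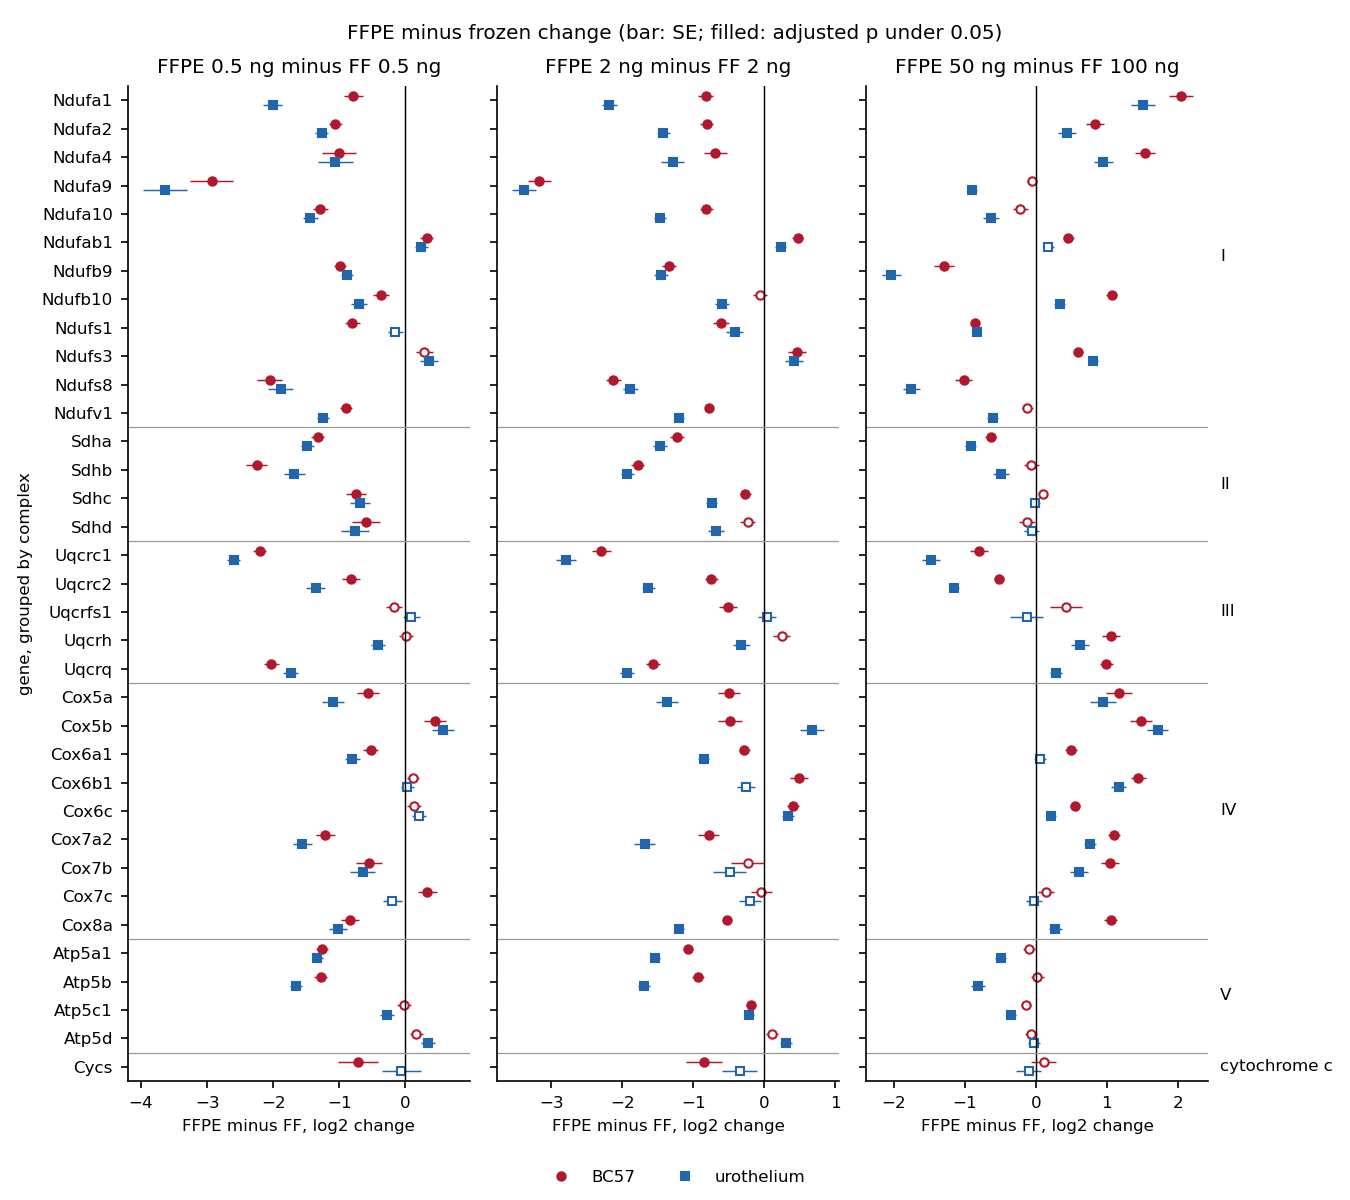
Log2 change, FFPE minus FF (horizontal axes), of 35 of the 36 genes (rows, grouped by complex) at 0.5 ng, at 2 ng and for FFPE 50 ng minus FF 100 ng, with BC57 as red circles, urothelium as blue squares, bars for the SE, and filled symbols where the adjusted p was under 0.05. Most symbols lie left of 0 at 0.5 and 2 ng, with Ndufa9 near -3, and on both sides of 0 for 50 ng against 100 ng, where complex IV lies mostly to the right.

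With SensationPlus on FFPE RNA against WT Plus on FF RNA, preservation, kit and input change together and cannot be told apart. In BC57 16 genes rose and 6 fell, where 24.2% and 19.5% of all probe sets did, and 10 rose more than 2-fold (2.24%). In urothelium 14 rose and 13 fell, where 34.8% and 25.0% did, and centring gave 10 and 14. The median change was 0.16 in BC57 and -0.03 in urothelium. All probe sets had medians of 0.10 in BC57 and 0.14 in urothelium, and the brightest probe sets -0.12 and -0.33. Complex IV stood on the higher side, with 8 of 9 rising in BC57 (median 1.05) and 7 of 9 in urothelium (0.61), and no gene falling. Complex V had 0 of 4 rising in either cell type, with 0 falling in BC57 and 3 in urothelium. Ndufa1 rose most, by 2.04 ± 0.17 in BC57 and Cox5b by 1.72 ± 0.15 in urothelium. Ndufb9, an accessory subunit of the membrane arm, fell furthest, by -1.29 ± 0.14 in BC57 and -2.03 ± 0.14 in urothelium. Ndufb9 read 9.03 and 8.95 at FFPE 50 ng, against 10.27 and 10.30 at FF 100 ng, in BC57. In urothelium it read 8.09 and 7.62 at FFPE 50 ng, against 9.94 and 9.83 at FF 100 ng. The arrays did not overlap in either cell type. Genes rising in both cell types numbered 14 (17.5%) and genes falling in both 6 (16%), with none opposite.

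Some genes of the set differed widely between amplification kits. Between WT Pico at 2 ng and WT Plus at 100 ng, both on FF RNA, 20 genes rose and 8 fell in the mean of both cell types, where 22.1% and 23.6% of all probe sets did, and 7 rose more than 2-fold (1.52%). Kit and input cannot be told apart in this comparison. Ndufa1 (ENSMUSG00000016427_at) read 10.66, 10.93 and 10.94 at 2 ng, against 7.37 and 7.18 at 100 ng, in BC57. Urothelium gave 11.15, 11.08 and 11.05 at 2 ng, against 7.20 and 7.27 at 100 ng. All WT Pico arrays were more than 3 log2 units above all WT Plus arrays, and the change was 3.71 ± 0.06 (adjusted p = 1.42e-11), or 13.1-fold. The other genes above 2-fold were Ndufa2 (2.54), Cox7a2 (1.77), Ndufa9 (1.63), Uqcrq (1.499), Cycs (1.10) and Cox7b (1.05). Ndufb9 (-0.94 ± 0.04) and Ndufs1 (-0.91 ± 0.07) fell furthest. The median was 0.24 over the set, 0.00 over all probe sets and 0.06 over the brightest probe sets. Under centring and quantile normalization the same numbers, 20 higher and 8 lower, were found.

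The kits differed far less in the difference between cell types. The interaction, the BC57 minus urothelium change at FF 2 ng minus that at FF 100 ng, gave 0 genes higher and 1 lower in limma's test, where 3.01% and 2.77% of all probe sets were called, and 9 genes had an unadjusted p under 0.05 (19.4%). The 1 was Sdhd, at -0.55 ± 0.09 (adjusted p = 0.00479), whose values at both inputs are given above, and quantile normalization gave 1 higher and 1 lower. With all 32 arrays in one fit Sdhd did not pass (adjusted p = 0.531). The interaction over the set ran from -0.55 to 0.32 with a median of -0.03. Ndufa1, with the largest kit effect, had an interaction of -0.29 ± 0.13.

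The matching kit comparison in fixed tissue, FFPE 2 ng minus FFPE 50 ng, gave 4 genes higher and 23 lower, where 42.9% and 22.7% of all probe sets were called, and 10 fell more than 2-fold (3.42%). After centring the split was 1 higher and 27 lower, and under quantile normalization 6 and 16. The median was -0.47 over the set, 0.17 over all probe sets and -0.31 over the brightest probe sets. Ndufa4 fell furthest (-2.35 ± 0.16, 5.09-fold lower at 2 ng), followed by Cox6b1 (-1.63 ± 0.11) and Cox5a (-1.58 ± 0.13). The highest were Ndufa2 (0.79 ± 0.09) and Cycs (0.50 ± 0.18). Cycs lost its call after centring (0.29), under quantile normalization (0.11, adjusted p = 0.652) and with a replicate block (0.32, 0.113). It also lost the call in one fit of all 32 arrays (0.0519) and without BC57 FFPE 2 ng replicate 2 (0.48, 0.0603) or 3 (0.49, 0.0569). Without 1 of the FFPE 50 ng arrays, which leaves 1 in that group, the change was 0.48 to 0.52. Of the 9 complex IV genes 6 fell and 0 rose. This comparison shares the FFPE 2 ng arrays with the FFPE minus FF comparison at 2 ng. Over the 36 genes the changes ranged from -2.35 to 0.79.

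Input alone, within WT Pico, gave at most 1 call among the 36 genes in each preservation on the deposited values. FF 0.5 ng minus FF 2 ng gave 0 genes higher and 1 lower in limma's test, where 0.00942% and 0.297% of all probe sets were called, and 13 genes had an unadjusted p under 0.05 (8.81%). The 1 was Ndufa2, an accessory subunit of the NADH-oxidising part of complex I. Ndufa2 read 11.22, 11.22 and 11.13 at 0.5 ng, against 11.40, 11.42 and 11.43 at 2 ng, in BC57. In urothelium it read 10.90, 10.91 and 10.95 at 0.5 ng, against 11.28, 11.26 and 11.30 at 2 ng. The 0.5 ng arrays were lower throughout, by -0.30 ± 0.03 (adjusted p = 0.000675), which did not pass in one fit of all 32 arrays (adjusted p = 0.102). The changes of the 36 genes ranged from -0.30 to 0.13 with a median of -0.08, and 32 of 36 were below 0. The median was 0.00 over all probe sets and -0.03 over the brightest probe sets. FFPE 0.5 ng minus FFPE 2 ng gave 0 higher and 0 lower in limma's test, where 1.54% and 0.499% of all probe sets were called, and 13 genes had an unadjusted p under 0.05 (26.9%). The changes ranged from -0.38 to 0.40 with a median of -0.14, and 27 of 36 were below 0. The median was 0.07 over all probe sets and -0.09 over the brightest probe sets. With all 32 arrays in one fit 12 genes passed, 2 higher and 10 lower.

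The other array values of the leading genes kept BC57 and urothelium apart in frozen RNA, Cox5b excepted. Uqcrfs1 read 7.34, 7.39 and 7.25 in BC57, against 6.35, 6.39 and 6.37 in urothelium, for FF 0.5 ng, and 7.43, 7.40 and 7.40 in BC57, against 6.39, 6.69 and 6.49 in urothelium, at FF 2 ng. At FFPE 0.5 ng it read 7.23, 7.25 and 6.98 in BC57, against 6.53, 6.18 and 6.66 in urothelium. The groups did not overlap at any of these. Atp5d read 6.68, 6.77 and 6.72 in BC57, against 6.35, 6.23 and 6.44 in urothelium, for FF 0.5 ng, and 6.96, 6.65 and 6.79 in BC57, against 6.22, 6.34 and 6.35 in urothelium, at FF 2 ng. In fixed RNA Atp5d read 6.96, 6.90 and 6.86 in BC57, against 6.51, 6.70 and 6.62 in urothelium, for FFPE 2 ng, and 6.89, 6.95 and 6.82 in BC57, against 6.87, 6.60 and 6.57 in urothelium, at FFPE 0.5 ng. BC57 was higher on every array except at FFPE 0.5 ng, where 1 urothelium array reached into the BC57 range. Ndufs1 read 6.39, 6.43 and 6.11 in BC57, against 5.83, 5.79 and 5.94 in urothelium, for FF 0.5 ng, 6.27, 6.44 and 6.47 in BC57, against 6.03, 5.72 and 6.02 in urothelium, for FF 2 ng, and 5.65, 6.03 and 5.68 in BC57, against 5.57, 5.54 and 5.41 in urothelium, at FFPE 2 ng. Ndufa4 read 10.07, 10.14 and 10.05 in BC57, against 9.05, 8.89 and 9.23 in urothelium, at FF 0.5 ng. For both genes BC57 was above urothelium on every one of these arrays. Sdhb read 9.35, 9.35 and 9.30 in BC57, against 8.85, 8.91 and 8.85 in urothelium, at FF 0.5 ng. Atp5b read 9.42, 9.45 and 9.23 in BC57, against 8.94, 9.03 and 8.95 in urothelium, at FF 0.5 ng. Neither overlapped. Cox5b read 5.07, 5.04 and 5.55 in BC57, against 5.10, 4.96 and 5.08 in urothelium, for FF 0.5 ng, 5.67, 5.61 and 5.73 in BC57, against 5.68, 5.24 and 5.93 in urothelium, for FFPE 0.5 ng, and 6.63 and 6.14 in BC57, against 6.18 and 6.30 in urothelium, at FFPE 50 ng. Cycs read 5.06, 4.83 and 4.59 in BC57, against 4.42, 4.73 and 4.26 in urothelium, for FFPE 0.5 ng, and 4.65, 4.88 and 4.84 in BC57, against 4.15, 4.08 and 5.14 in urothelium, at FFPE 2 ng. The groups overlapped in each of these conditions for both genes.

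**Figure D4:**
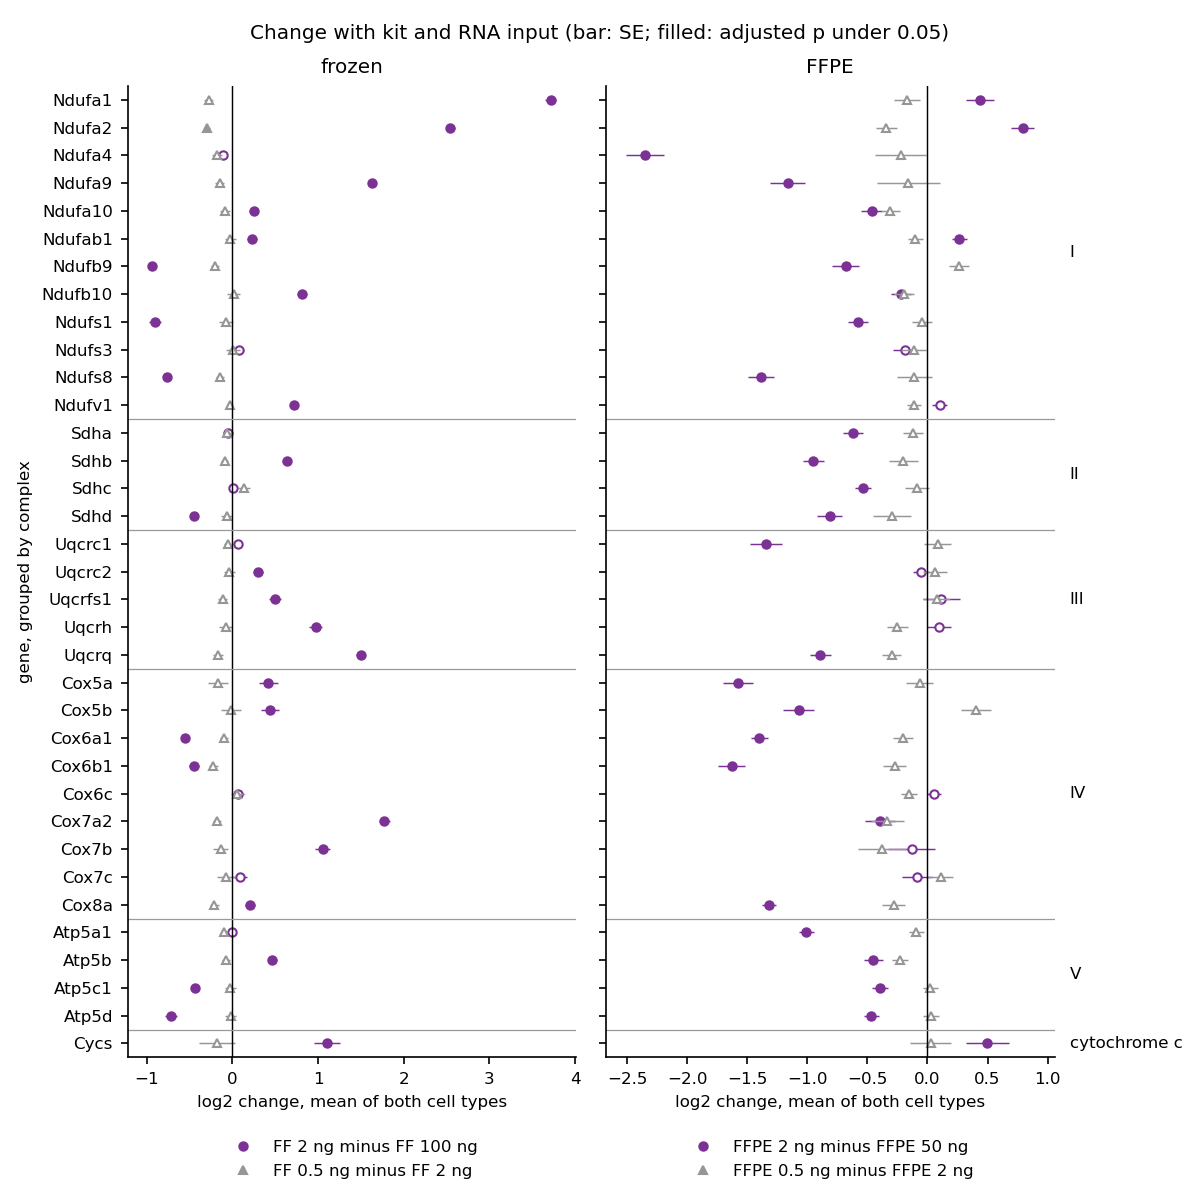
Log2 change with kit and RNA input, as the mean of both cell types (horizontal axes), of 35 of the 36 genes (rows, grouped by complex) in frozen (left) and FFPE (right) RNA, with purple circles for WT Pico at 2 ng minus the larger input (100 ng WT Plus or 50 ng SensationPlus), grey triangles for 0.5 ng minus 2 ng within WT Pico, bars for the SE and filled symbols where the adjusted p was under 0.05. The circles run from -0.94 to 3.71 in frozen RNA, with Ndufa1 at the right end, and the triangles stay between -0.38 and 0.40.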

How the data were processed

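Expression was measured on 32 mouse arrays with biotin-labelled RNA. The deposited log2 values were made by the authors with RMA (background correction, normalization and summary over probes) and affy, as the submitters' processing notes name them. Neither versions nor the array design and probe annotation are given in these sources, which also do not say if the 32 arrays were normalized as one set. The array medians are not equal in the deposited table, so a shift shared by most probe sets can enter a fold change, and centring and quantile normalization were tried for that reason. Values ran from 1.23 to 13.2.

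Groups followed the sample titles. Each comparison was fitted with limma 3.58.1 (lmFit, eBayes with intensity trend, 2-sided) in R 4.3.3 over all 21237 probe sets, with Benjamini-Hochberg adjustment over all of them and a threshold of 0.05. Cell type contrasts used the arrays of 1 condition, and the other contrasts the 4 groups of both conditions. No filter or pseudocount was used. The fit was tested on simulated data. Tables and figures were made with Python 3.11.15, pandas 2.3.3 and matplotlib 3.10.9. Alternatives were centring, quantile normalization, all 32 arrays in one fit, the brighter 10618 probe sets, a replicate block, and leaving out each array. Shares of all probe sets called are given for the deposited values only and not for the alternatives.

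In 0 of 12 comparisons with 3 shared numbers was every correlation of deviations between same-numbered arrays over 0.1, so no block was used. Single correlations reached 0.29, at FF 0.5 ng. The rule asks for every correlation to be over 0.1, so it cannot show that no same-numbered arrays deviated together. Array values are given for the 2 genes of each complex with the largest absolute change at FF 100 ng and for Cycs, and in each comparison the 2 largest rises and falls among passing genes may be named. Array values of Uqcrh, Ndufa1, Ndufa2, Ndufa9 and Ndufb9 were added after their values were seen. The values of 1 gene of the set, which enters the counts and medians, are not reported here. The genes, lists and tests were chosen with earlier results of these data known. The RefSeq gene table matched 0 of the identifiers, so lists of other subunits, assembly factors, biogenesis regulators, citric acid cycle enzymes and cell type markers were not used here.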

Additional observations from a re-analysis of the deposited data

Results flagged for a closer look

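These genes were set apart because the BC57 minus urothelium change differed between conditions in limma's interaction test, with a positive value for a change more positive in the first-named condition. For FFPE 2 ng minus FF 2 ng the complex IV genes were Cox5a (0.88), Cox5b (-1.16), Cox6a1 (0.57), Cox6b1 (0.75), Cox7a2 (0.90) and Cox8a (0.68). The complex I genes included Ndufa1 (1.35), Ndufa2 (0.61), Ndufa10 (0.65), Ndufb10 (0.53) and Ndufv1 (0.42). The others were Atp5a1 (0.47) and Atp5b (0.76) of complex V, Uqcrc2 (0.89), Uqcrfs1 (-0.55) and Uqcrh (0.57) of complex III, and Sdhc (0.48) and Sdhd (0.45) of complex II. Sdhd lost this call in 8 of the 12 fits without 1 array. For FFPE 0.5 ng minus FF 0.5 ng they were Ndufa1 (1.22) and Ndufs1 (-0.65). For FFPE 50 ng minus FF 100 ng, where kit and input differ too, they were Cox8a (0.78), Ndufa9 (0.85), Ndufb10 (0.73), Ndufs8 (0.74), Ndufv1 (0.49), Atp5b (0.84), Uqcrc2 (0.63) and Uqcrq (0.71). For FF 2 ng minus FF 100 ng it was Sdhd (-0.55). Ndufa1 passed at both matched inputs with the same sign. In each cell type the FFPE arrays also had higher array medians and a wider spread between replicates than the FF arrays compared with them. At WT Pico their range of intensities was narrower. Their SD over all probe sets was 1.49 to 1.64 in BC57 and 1.37 to 1.47 in urothelium. On FF arrays at WT Pico this SD was 1.91 to 1.999 in BC57 and 1.89 to 1.97 in urothelium. The part of these differences in the interactions was not tested.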

How the results depend on the processing

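Of the 20 counts of genes passing, most moved by less than 1.5 times under the alternatives, and those that moved further follow. Quantile normalization over all arrays gave 5 in place of 15 for BC57 minus urothelium at FFPE 0.5 ng, 19 in place of 30 for FFPE minus FF in BC57 at 2 ng, 16 in place of 29 at 0.5 ng, 8 in place of 19 for the interaction at 2 ng, 1 in place of 2 for that at 0.5 ng, 2 in place of 1 for that of FF 2 ng minus FF 100 ng, and 2 in place of 1 for FF 0.5 ng minus FF 2 ng. One fit of all 32 arrays gave 24, 6 and 12 in place of 15, 2 and 0 for BC57 minus urothelium at FFPE 0.5 ng, the interaction at 0.5 ng and FFPE 0.5 ng minus FFPE 2 ng, and 0 in place of 1 for the interaction of FF 2 ng minus FF 100 ng and for FF 0.5 ng minus FF 2 ng. The interaction of FFPE 50 ng minus FF 100 ng (8) became 13 after centring and 13 among the 10618 brighter probe sets, and FF 0.5 ng minus FF 2 ng (1) became 3 among them. With the replicate number as a block (replicate block) the interaction of FFPE 50 ng minus FF 100 ng gave 15, and no other count moved by over 1.5 times. In this check 1 of 8 comparisons with 2 shared numbers, BC57 minus urothelium at FFPE 50 ng, had its correlation over 0.1. Leaving out 1 array at a time gave 7 to 14 for BC57 minus urothelium at FFPE 0.5 ng, 2 to 4 for the interaction at 0.5 ng, 4 to 12 for that of FFPE 50 ng minus FF 100 ng, 1 to 2 for that of FF 2 ng minus FF 100 ng and 1 to 3 for FF 0.5 ng minus FF 2 ng.

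Directions turned in FFPE minus FF. After centring in urothelium these were Atp5d (-0.085 at 2 ng, -0.068 at 0.5 ng), Uqcrfs1 (-0.35, -0.32) and Ndufs3 (-0.050 at 0.5 ng), and in BC57 Cox7c (-0.055 at 0.5 ng). Under quantile normalization they were Sdhd in urothelium at 2 ng (0.0073) and, in BC57, Cox5a (0.18 at 2 ng, 0.32 at 0.5 ng), Sdhd (0.46, 0.25) and Cox7c (-0.054 at 0.5 ng), and in FFPE 2 ng minus FFPE 50 ng Atp5b (0.036). Cycs in urothelium at 0.5 ng ran from -0.35 to 0.41 when 1 array was left out, turning without FF replicate 2. The median over all probe sets in FFPE minus FF at 0.5 and 2 ng was 0.28 to 0.47 as deposited and -0.01 to 0.06 after centring. For the single genes tracked, fits without 1 array kept a call 1304 times and lost it 74 times, and where the deposited values had not passed they gained one 20 times and turned the direction 1 time. In FFPE minus FF of 1 cell type, leaving out an array of the other cannot move the change, only its test. The genes tracked were also chosen largely for large changes in these data, so these numbers do not measure how stable calls are. The cause of the moves was not tested. The 2 or 3 arrays of a group limit the precision, and the spread between them was wider in FFPE RNA.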
